A study of Homo sapiens with 4 samples.

Results

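Huh7-C cells, hepatic cancer stem cells (HCSCs), were compared with the hepatoma line Huh7 from which they were cultured, over all 1733 miRNA names in the count files. Fold-changes were taken for the 431 names that reached 10 counts in Huh7 or Huh7-C, out of 772 names with at least 1 count. The study sequenced small RNA of 4 kinds of cells, namely Hep3B, Huh7 and the stem-like cells grown from either line, Hep3B-C and Huh7-C. Huh7 is a widely used human hepatocellular carcinoma line, here obtained from ATCC, and Huh7-C is the population that the authors enriched from it with a culture system of their own. No drug, transgene or knockdown is named for either population. Each condition had 1 library (2 of the 4 libraries are used below), so no difference has a replicate check, and the values compare those libraries rather than the 2 cell states. The 95% intervals below are exact binomial (Clopper-Pearson) intervals on how the 2 counts of a miRNA split, and cover counting error only.

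MicroRNAs are short RNAs cut from hairpin precursors. A mature miRNA guides an Argonaute protein to target mRNAs, mainly through its seed, the bases at positions 2 to 8, so that miRNAs with the same seed share many targets. The 2 arms of a hairpin give 2 mature strands, of which the one taken as the rarer carried an asterisk in the names used here. In liver, miR-122 is the best known hepatocyte miRNA, and loss of several others (miR-29, miR-34 and miR-30 members among them) has been studied in liver cancer.

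The mature sequences below, from RefSeq (GRCh38.p14), belong to the miRNAs on which the results turn. Positions 2 to 8 are in capitals. The first set has the same seed within each family but different values within it, and is shown so that members can be told apart by their bases.
hsa-miR-30a: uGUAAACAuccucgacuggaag
hsa-miR-30c: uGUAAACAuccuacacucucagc
hsa-miR-30e: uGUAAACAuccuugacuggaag
hsa-miR-29a: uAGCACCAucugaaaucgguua
hsa-miR-29b: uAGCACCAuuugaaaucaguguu
hsa-miR-29c: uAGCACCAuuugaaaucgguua
hsa-miR-148a: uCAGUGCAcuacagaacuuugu
hsa-miR-148b: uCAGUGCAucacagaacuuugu
hsa-miR-152: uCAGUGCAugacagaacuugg
hsa-miR-23a: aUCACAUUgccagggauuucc
hsa-miR-23b: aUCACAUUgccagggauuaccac
hsa-miR-27a: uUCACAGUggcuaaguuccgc
hsa-miR-27b: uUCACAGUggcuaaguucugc
hsa-miR-192: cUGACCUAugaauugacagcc
hsa-miR-215: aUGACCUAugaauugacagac
The second set holds other miRNAs described below, chosen as examples of abundant names, of single-position paralogs, of both strands of a hairpin and of large increases and decreases.
hsa-miR-378: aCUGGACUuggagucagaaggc
hsa-miR-122: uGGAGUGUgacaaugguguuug
hsa-miR-1269: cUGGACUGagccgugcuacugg
hsa-miR-1269b: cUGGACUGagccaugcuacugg
hsa-miR-22: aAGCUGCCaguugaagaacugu
hsa-miR-22*: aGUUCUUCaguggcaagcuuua
hsa-miR-34a: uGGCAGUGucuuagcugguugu
hsa-miR-379: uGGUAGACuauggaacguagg
hsa-miR-3689a-5p: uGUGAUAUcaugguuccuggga
Counted from 1 at the 5′ end, miR-30a and miR-30e differ by C13U, miR-29a and miR-29c by C10U, miR-27a and miR-27b by C19U, and miR-1269 and miR-1269b by G13A. Over the bases that both have, miR-23a and miR-23b differ by U19A, and miR-23b is 23 bases long against 21. How the authors shared out reads that match more than 1 of these names was not stated, so the counts of such neighbours carry that uncertainty.

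The files hold raw read counts. They summed to 5741567 miRNA counts in Huh7 and 4045199 in Huh7-C, which was 54.1% and 37.8% of all reads sequenced in each library. At least 1 count was found for 712 names in Huh7 and 664 in Huh7-C. The choice of library size therefore matters: a level in TPM (counts per 1000000 total reads, the study's unit) shows how much of the whole library a miRNA took, and a level in CPM (counts per 1000000 miRNA counts) shows its share among miRNAs. A log2 ratio of Huh7-C over Huh7 was 0.52 higher in CPM than in TPM for every miRNA. Whether less miRNA per cell, more of other small RNAs or library preparation gave the lower miRNA share in Huh7-C cannot be told apart. A floor of 3 counts equalled 0.523 CPM in Huh7 and 0.742 CPM in Huh7-C.

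Huh7-C kept most of the miRNA profile of Huh7. Over the 547 names that reached 10 counts anywhere in the series, log2 levels in Huh7 and Huh7-C had a Pearson r of 0.933, against 0.638 between Huh7-C and Hep3B-C. These are correlations across miRNAs, which are not independent replicates. Of 24 names at least 10-fold higher in Huh7 than in Hep3B, 20 lay nearer to Huh7 than to Hep3B in Huh7-C, with miR-29a*, miR-451, miR-767-3p and miR-874 as the exceptions. Of 30 names at least 10-fold higher in Hep3B than in Huh7, 29 lay nearer to Huh7, with miR-1269 as the exception.

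More miRNAs were lower than higher in Huh7-C. A miRNA was called when it differed at least 2-fold and its 95% counting interval did not reach equality. In TPM, 29 of 431 names (6.73%) were called higher and 149 (34.6%) lower. In CPM, 62 (14.4%) were called higher and 90 (20.9%) lower. The 29 higher calls (6.73%) on the first scale were also made on the second, and the 90 lower calls (20.9%) on the second were also made on the first, so these are the names called on both scales. Below, "called" without a scale means on both. The median log2 ratio was -0.66 in TPM and -0.15 in CPM. With TMM library sizes, which assume that most miRNAs do not differ, 76 were called higher and 82 lower. Among names with at least 10 counts in both libraries, 49 were called higher and 50 lower in CPM. At least 10 counts in Huh7 and none in Huh7-C were found for 7 names, and the reverse for 0.

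**Figure D1:**
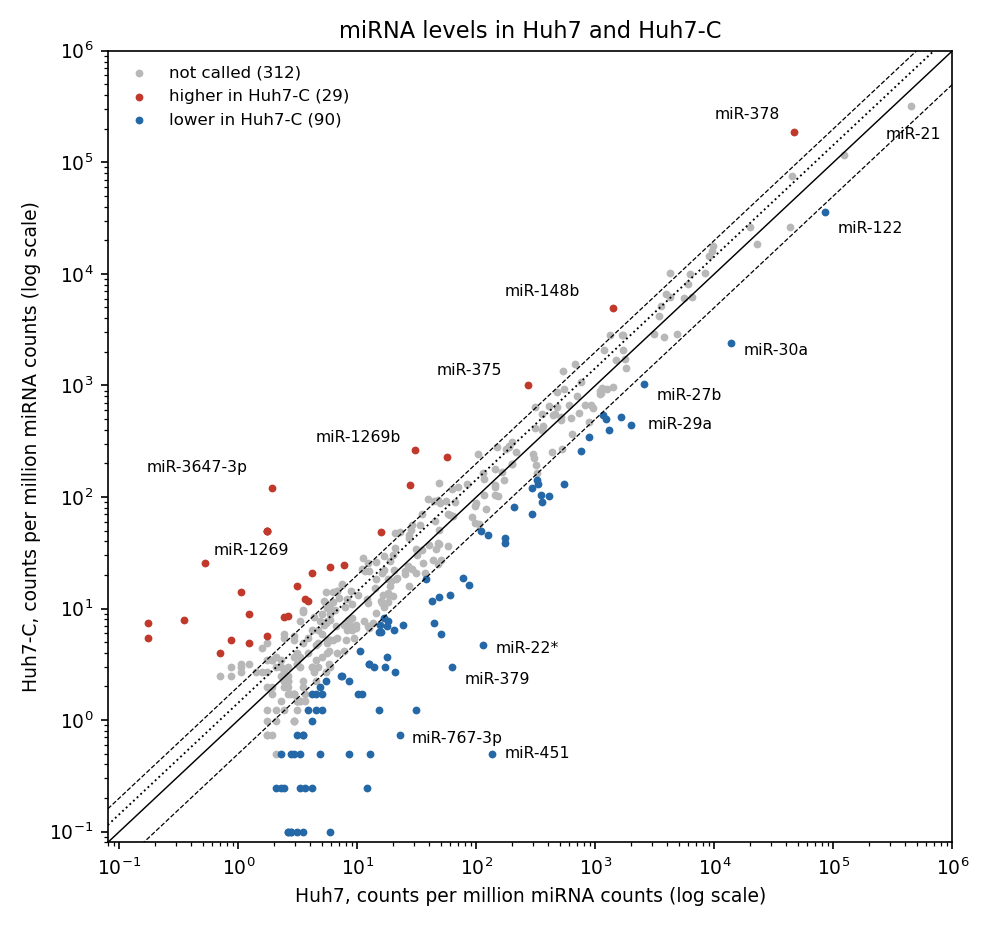
Level of each of the 431 miRNAs in Huh7 (x axis) and Huh7-C (y axis), in CPM on log scales, with 1 point per miRNA and 1 library per axis. The solid line marks equal levels, the dashed lines 2-fold differences and the dotted line equal TPM; the 29 called higher are red, the 90 called lower blue, and the 7 names with no count in Huh7-C are drawn at 0.1.

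Lower calls were found at every depth. Among the 33 names with 10000 or more counts in the higher library, 2 were called higher and 4 lower. Among the 65 names with at least 1000 but under 10000 counts, 2 were called higher and 15 lower. Among the 225 names with fewer than 100 counts, 17 were called higher and 48 lower.

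The most abundant miRNAs shifted their shares. miR-21, an oncogenic miRNA raised in many tumours, had 2566558 counts in Huh7 and 1292482 in Huh7-C, or 44.7% and 32.0% of miRNA counts. Its log2 ratio was -1.002 (interval -1.005 to -0.999) in TPM and -0.48 in CPM, so it was called on the first scale only. miR-192, a liver and gut miRNA induced by p53, had 706923 and 469706 counts, with log2 ratios of -0.60 and -0.08 on the 2 scales. Neither of these highest-count miRNAs was called on both scales.

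miR-378 and miR-122 moved in opposite directions. The miR-378 sequence shown above comes from the arm of MIR378A now named 378a-3p (chromosome 5, 149732825 to 149732890, GRCh38), which lies within PPARGC1B, a gene of mitochondrial energy metabolism. It had 267128 counts in Huh7 and 759746 in Huh7-C, and its share of miRNA counts was 4.65% and 18.8%. Its log2 ratio was 1.50 (interval 1.49 to 1.50) in TPM and 2.01 in CPM. miR-122, which supports the hepatocyte programme and lipid metabolism (MIR122, chromosome 18, 58451074 to 58451158), had 489443 and 144814 counts, or 8.52% and 3.58% of miRNA counts. Its log2 ratio was -1.77 (interval -1.78 to -1.76) and -1.25 on the 2 scales. Its other strand, miR-122*, had 279 and 51 counts and a log2 ratio of -2.46 in TPM.

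None of the other names among the 10 most abundant was called on both scales. miR-30e had 250081 counts in Huh7 and 107033 in Huh7-C (log2 ratio -1.24 in TPM, -0.72 in CPM) and was called lower in TPM only. miR-374a* had 130136 and 74317 counts (-0.82 and -0.30), and miR-182 had 114108 and 106719 (-0.11 and 0.41). Values above equality on both scales, but under 2-fold, were found for miR-148a (256476 and 306533 counts, 0.24 and 0.76), miR-103a (55901 and 72465, 0.36 and 0.88) and let-7a (54615 and 65069, 0.24 and 0.76), a miRNA of differentiated cells.

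Among names with at least 50 counts in the higher library, 17 were called higher and 56 lower. The 12 largest increases ran from 1.49 to 5.45 in log2 ratio in TPM. miR-3647-3p had 11 counts in Huh7 and 485 in Huh7-C (5.45, interval 4.60 to 6.46). miR-1269, from MIR1269A on chromosome 4 (66276824 to 66276928), had 3 and 103 counts (5.09, interval 3.50 to 7.39). Its paralog miR-1269b, from chromosome 17 (12917268 to 12917342), had 176 and 1066 counts (2.59, interval 2.35 to 2.82). The G13A difference between them is outside the seed, and both were called higher. Within each library, the count of miR-1269 per count of miR-1269b was 0.0170 in Huh7 and 0.0966 in Huh7-C, a log2 difference of 2.50 with a wide interval of 0.83 to 4.18.

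The miR-3689 names formed the next group. miR-3689a-5p, miR-3689b and miR-3689e had identical counts in every library, 10 in Huh7 and 202 in Huh7-C (log2 ratio 4.32 in TPM, interval 3.42 to 5.41), so they are 1 measurement under 3 names. miR-3689f had 1 and 30 counts. The 4 genes lie between 134849487 and 134850807 on chromosome 9, and neither Hep3B library held a count of the 3 identical names. All 4 names were called higher.

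The remaining large increases had fewer counts or smaller ratios. miR-4449, which overlaps the non-coding gene DANCR, had 6 and 57 counts (3.24 in TPM, interval 2.03 to 4.74), and miR-760 had 18 and 65 (1.84, interval 1.07 to 2.68). Both strands of MIR338 were called higher, miR-338-5p with 24 and 84 counts (1.79) and miR-338-3p with 15 and 35 (1.21). miR-375, known from pancreatic islets, had 1573 counts in Huh7 and 4060 in Huh7-C (1.36 in TPM, interval 1.27 to 1.44). With small counts, miR-1248 (2 and 32), miR-3653 (7 and 20) and miR-3607-3p (7 and 36) were also called higher. miR-1248 overlaps the small nucleolar RNA gene SNORA81, and miR-3653 overlaps SNORD125, a gene of the same kind. The authors searched miRBase only with reads left after matching to small nucleolar and other RNAs. Whether reads of miR-1248 and miR-3653 came from SNORA81 and SNORD125 was not tested.

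The largest decrease was that of miR-451, an erythroid miRNA that is cut by AGO2 without Dicer. It had 773 counts in Huh7 and 2 in Huh7-C, a log2 ratio of -8.61 in TPM (interval -11.66 to -6.75) and -8.09 in CPM, and each Hep3B library had 1 count. Its gene MIR451A lies on chromosome 17 (28861369 to 28861440) beside MIR144, and miR-144* had 17 and 4 counts and was not called. Over the whole list of 12 names that mark blood cells, 6 were detected and 3 reached 10 counts, and their summed counts were 818 in Huh7, of which miR-451 gave 773, and 15 in Huh7-C, of which it gave 2. miR-142-3p, a marker of blood cells, had 20 and 3 counts, miR-223, the myeloid marker, had none in either library, and miR-486-5p, another erythroid miRNA, had 4 and 6. The part of such cells in the miR-451 value was not tested.

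Other decreases of more than 30-fold in TPM came from several chromosomes. miR-874, within KLHL3, had 69 counts in Huh7 and 1 in Huh7-C, a log2 ratio of -6.12 with an interval of -11.45 to -3.60. miR-767-3p had 130 and 3 counts (-5.45, interval -7.75 to -3.87). miR-22* had 654 and 19 (-5.12), miR-134 had 178 and 5 (-5.17), miR-381 had 74 and 2 (-5.22) and miR-379 had 359 and 12 (-4.92, interval -5.88 to -4.09).

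The last 3 of these belong to the DLK1-MEG3 cluster, a large group of maternally expressed miRNAs in an imprinted region of chromosome 14. All 8 of its names that reached 10 counts were called lower, beside a background of 20.9% for lower calls. Of these only miR-379 reached 10 counts in both libraries. The other names passed the filter through Huh7 alone, where they are high, so the filter itself favoured lower calls among them. The counts of all 8 were summed with the other names of the list (26 of 67 detected) to 751 in Huh7 and 22 in Huh7-C, a log2 ratio of -5.11 (interval -5.79 to -4.50). The 4 names miR-127-3p, miR-376c, miR-411 and miR-889 had 15 to 18 counts in Huh7 and 0 in Huh7-C. For miR-127-3p this is at least 6.05-fold lower in TPM, against the floor of 3 counts. In the Hep3B pair 24 of 41 such names were called higher and 0 lower, where 14.3% of all 475 tested names were called higher and 4.42% lower.

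Outside that region, miR-149 (in GPC1) had 87 counts in Huh7 and 5 in Huh7-C, a log2 ratio of -4.13 in TPM. miR-34a, a direct target of p53 (MIR34A, chromosome 1, 9151668 to 9151777), had 292 and 24 counts (-3.62, interval -4.28 to -3.02). miR-4521 had 118 and 11 (-3.44), miR-32* had 63 and 7 (-3.18), and miR-29a* had 255 and 30 (-3.10). The seed family of miR-34a is described next with the other families.

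All 4 tested names of the miR-34 family, whose members are induced by p53 and slow the cell cycle, were lower. Of these 3 were called lower, where 20.9% of all names were, namely miR-34a, miR-34c-5p (9388 counts in Huh7 and 2086 in Huh7-C, log2 ratio -2.18 in TPM) and miR-34c-3p (19 and 2). miR-34b*, with 12 and 2 counts, was not called. Both miR-34b* and miR-34c-3p passed the filter through Huh7 alone, so the filter favoured lower values for them. The list's median log2 ratio was -2.66 in TPM and -2.14 in CPM, beside -0.66 and -0.15 over all 431 names.

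In the miR-29 family, which targets collagens and the DNA methyltransferases DNMT3A and DNMT3B, 5 of 7 names were called lower and 0 higher, beside 20.9% and 6.73% of all names. miR-29a had 11462 counts in Huh7 and 1795 in Huh7-C (log2 ratio -2.69 in TPM, interval -2.76 to -2.62), and miR-29b had 1697 and 285 (-2.59, interval -2.77 to -2.40). miR-29c, which differs from miR-29a by C10U, had 96 and 42 counts (-1.21, interval -1.76 to -0.67) and was not called in CPM. Among the called names, miR-29c* (29 and 7 counts) passed the filter through Huh7 alone, which favoured a lower value. The count of miR-29a per count of miR-29c was 119 in Huh7 and 42.7 in Huh7-C. This ratio of ratios, in which no library size enters, was -1.48 in log2 (Woolf interval -2.01 to -0.95).

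The miR-30 family, which represses SNAI1 and other genes of epithelial-mesenchymal transition, was uneven. Of 11 names 5 were called lower and 0 higher, beside 20.9% and 6.73% of all names. miR-30a had 79756 counts in Huh7 and 9728 in Huh7-C (log2 ratio -3.05 in TPM, interval -3.08 to -3.02). miR-30c had 6692 and 2180 (-1.63), and miR-30b had 725 and 185 (-1.98). The other strands miR-30a* (7409 and 1606 counts, -2.22) and miR-30c-2* (989 and 156, -2.68) were also called. miR-30d, with 52103 and 58908 counts, had ratios of 0.16 and 0.68 on the 2 scales. Thus miR-30a had 1.53 counts per count of miR-30d in Huh7 and 0.165 in Huh7-C, a log2 difference of -3.21 (Woolf interval -3.25 to -3.18), and in the Hep3B pair the same quantity was -0.34.

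The paralogous clusters of miR-23, miR-27 and miR-24 differed from each other. The chromosome 9 cluster (95085208 to 95086088, within C9orf3) had 4 tested names, all called lower, where 20.9% of all names were. There miR-27b had 14708 counts in Huh7 and 4189 in Huh7-C (log2 ratio -1.82 in TPM), miR-27b* had 2032 and 361 (-2.51), miR-23b had 445 and 76 (-2.56) and miR-23b* had 12 and 1. Of these, miR-23b* passed the filter through Huh7 alone, so the filter favoured a lower value for it. In the chromosome 19 cluster (13836287 to 13836659) none of the 4 names was called. miR-27a had 7662 and 11356 counts (0.56 and 1.07 on the 2 scales), miR-27a* had 2710 and 2614 (-0.06 and 0.45), and miR-23a had 1802 and 781 (-1.22 and -0.70). miR-24, which both clusters encode, had 19542 and 16951 counts.

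The same contrast can be read within a library. miR-27b, which differs from miR-27a by C19U and has the same seed, had 1.92 counts per count of miR-27a in Huh7 and 0.369 in Huh7-C. The log2 difference was -2.38 (Woolf interval -2.44 to -2.31). For the other strands miR-27b* and miR-27a* it was -2.44 (interval -2.62 to -2.26), and for miR-23b against miR-23a -1.34 (interval -1.71 to -0.97). In the Hep3B pair these 3 quantities were 0.92, 0.67 and 0.80, so that there the chromosome 9 members gained on those of chromosome 19.

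**Figure D2:**
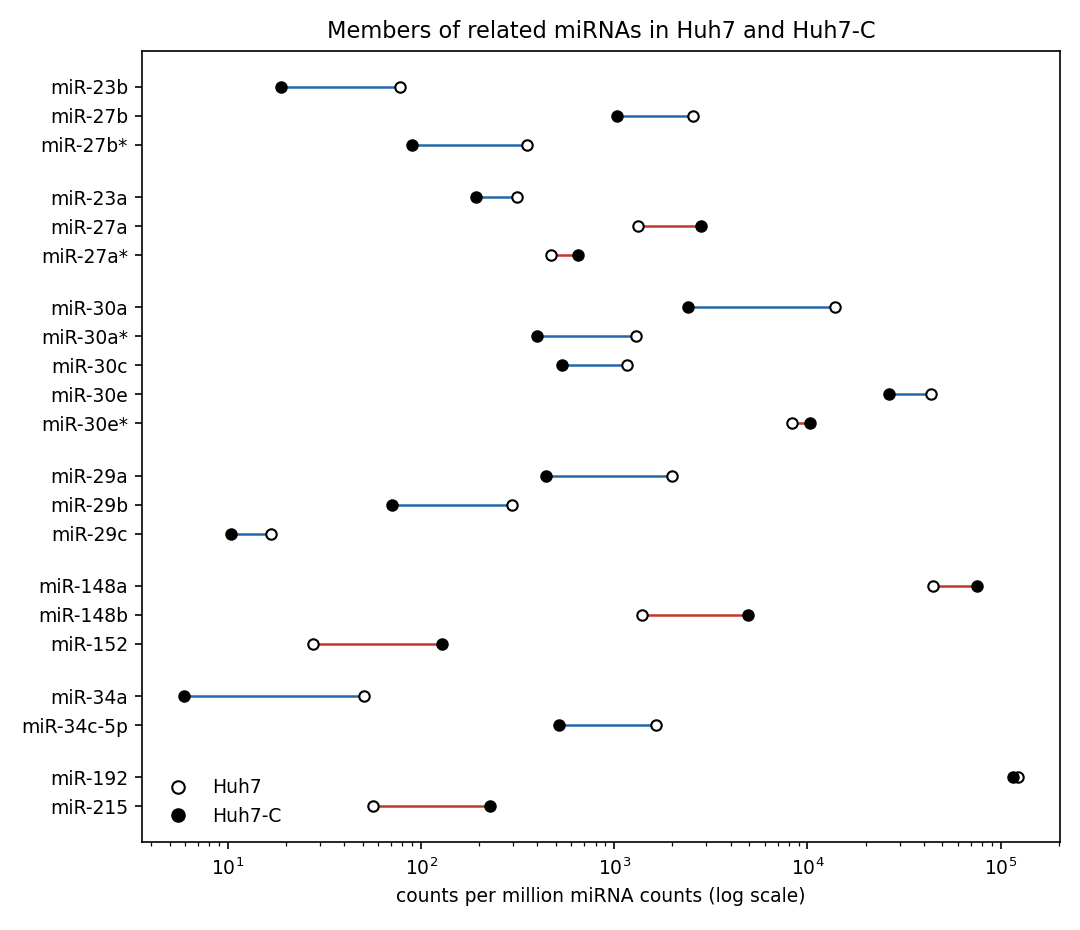
Levels of related miRNAs in Huh7 (open circles) and Huh7-C (filled circles), in CPM on a log scale, with 1 library per circle, a red line where Huh7-C is higher and a blue line where it is lower. miR-27b falls below miR-27a in Huh7-C, miR-30a shows the longest blue line of its family, and miR-148a, miR-148b and miR-152 all lie higher in Huh7-C.

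The miR-148 and miR-152 family, known to target DNMT1, lay on the other side. Its 3 members with the seed CAGUGCA were higher in Huh7-C on both scales, and those with fewer counts more so. miR-152, within COPZ2, had 158 counts in Huh7 and 521 in Huh7-C (log2 ratio 1.71 in TPM, interval 1.45 to 1.97). miR-148b, within COPZ1, had 8029 and 19920 (1.30, interval 1.26 to 1.34), and miR-148a had 256476 and 306533 (0.24) and was not called. The other strand miR-148a* went the other way, with 7003 and 2043 counts (-1.79, interval -1.86 to -1.72). In the Hep3B pair neither miR-152 nor miR-148b was called on both scales, and the direction turned with the scale, with log2 ratios of 0.19 and 0.95 in TPM and -1.57 and -0.81 in CPM.

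miR-192 and miR-215 share the seed UGACCUA and differ by C1A and C20A. miR-215 had 325 counts in Huh7 and 923 in Huh7-C (log2 ratio 1.49 in TPM, interval 1.31 to 1.68), while miR-192 was lower on both scales, as given above. miR-192* had 116 and 26 counts (-2.17) and was called lower, and miR-194, encoded beside both, had 31949 and 24347 (-0.40) and was not. The count of miR-215 per count of miR-192 differed by 2.10 in log2 (Woolf interval 1.91 to 2.28), and by 2.27 in the Hep3B pair.

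Of the 14 tested names on a list of liver-enriched miRNAs, 6 were called lower (background 20.9%) and 0 higher (background 6.73%), with a median log2 ratio of -1.45 in TPM and -0.93 in CPM. The summed counts of its 16 detected names were 1530385 in Huh7 and 963455 in Huh7-C, a log2 ratio of only -0.68 in TPM and -0.16 in CPM. The 6 were both strands of miR-122, both strands of miR-22, miR-148a* and miR-192*. Those with an asterisk are rarer arms, and over all hairpins the rarer arm was lower relative to the other in 66 of 93. miR-22, a tumour suppressor in several tissues (MIR22, chromosome 17, 1713903 to 1713987), had 3128 counts in Huh7 and 524 in Huh7-C (-2.59, interval -2.73 to -2.46). miR-101, which targets EZH2, had 27733 and 11614 counts (-1.27 and -0.75 on the 2 scales) and was not called. miR-148a was the only member of this list higher on both scales.

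miR-210, the best known target of hypoxia-inducible factor among miRNAs, had 1992 counts in Huh7 and 417 in Huh7-C, with a log2 ratio of -2.27 in TPM (interval -2.42 to -2.12) and -1.75 in CPM. It was called lower in the Hep3B pair as well (1120 and 229 counts). miR-199a-3p and miR-199b-3p, which cannot be told apart because their counts were identical in every library, had 72 and 13 counts (-2.48). miR-143 of the same mesenchymal list had 33 and 13 and was not called, and miR-145 had none.

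The families in this paragraph had call counts at or below the background of 20.9% lower and 6.73% higher, which did not hold for every other list. None of the 8 tested let-7 names, which repress growth genes, was called on both scales, though 2 were called higher in CPM and 1 lower in TPM, with counts of let-7a given above, let-7f at 6792 and 8399 and let-7e at 3659 and 1490 (log2 ratio -1.31 and -0.79 on the 2 scales). Of 21 names of the miR-17-92 cluster and its paralogs, which promote proliferation, 3 were called lower on both scales and 6 in TPM. These were miR-18a (1687 and 482 counts), miR-19b (1184 and 332) and miR-19b-1* (24 and 1), while miR-17, from the same transcript as miR-18a, had 3155 and 3726. None of the 7 miR-181 names was called on both scales, nor any of the 4 names of the miR-183, miR-96 and miR-182 cluster, of which 2 were called lower in TPM.

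Pluripotency miRNAs were close to absent. The embryonic stem cell clusters (miR-302, miR-371 to miR-373) summed to 3 counts in Huh7 and 19 in Huh7-C over 19 names, and the C19MC cluster, active in placenta, to 0 and 2 over 59 names. None of these names reached 10 counts, so no fold-change was taken. In the miR-200 family, a mark of epithelial cells, only 2 of 9 names reached 10 counts, and neither was called (miR-200c, 316 and 373 counts).

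Markers of other cell types were also counted. miR-126, an endothelial marker, had 2031 counts in Huh7 and 1618 in Huh7-C. Of the muscle markers, miR-206 had 34 and 95 counts and was called higher, miR-499-5p had 20 and 3 and was called lower, and miR-1 had 31 and 44 and was not called. Neural markers summed to 10488 and 11803 counts, of which miR-9 gave 9765 and 11349, and none of the 4 tested names was called.

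**Figure D3:**
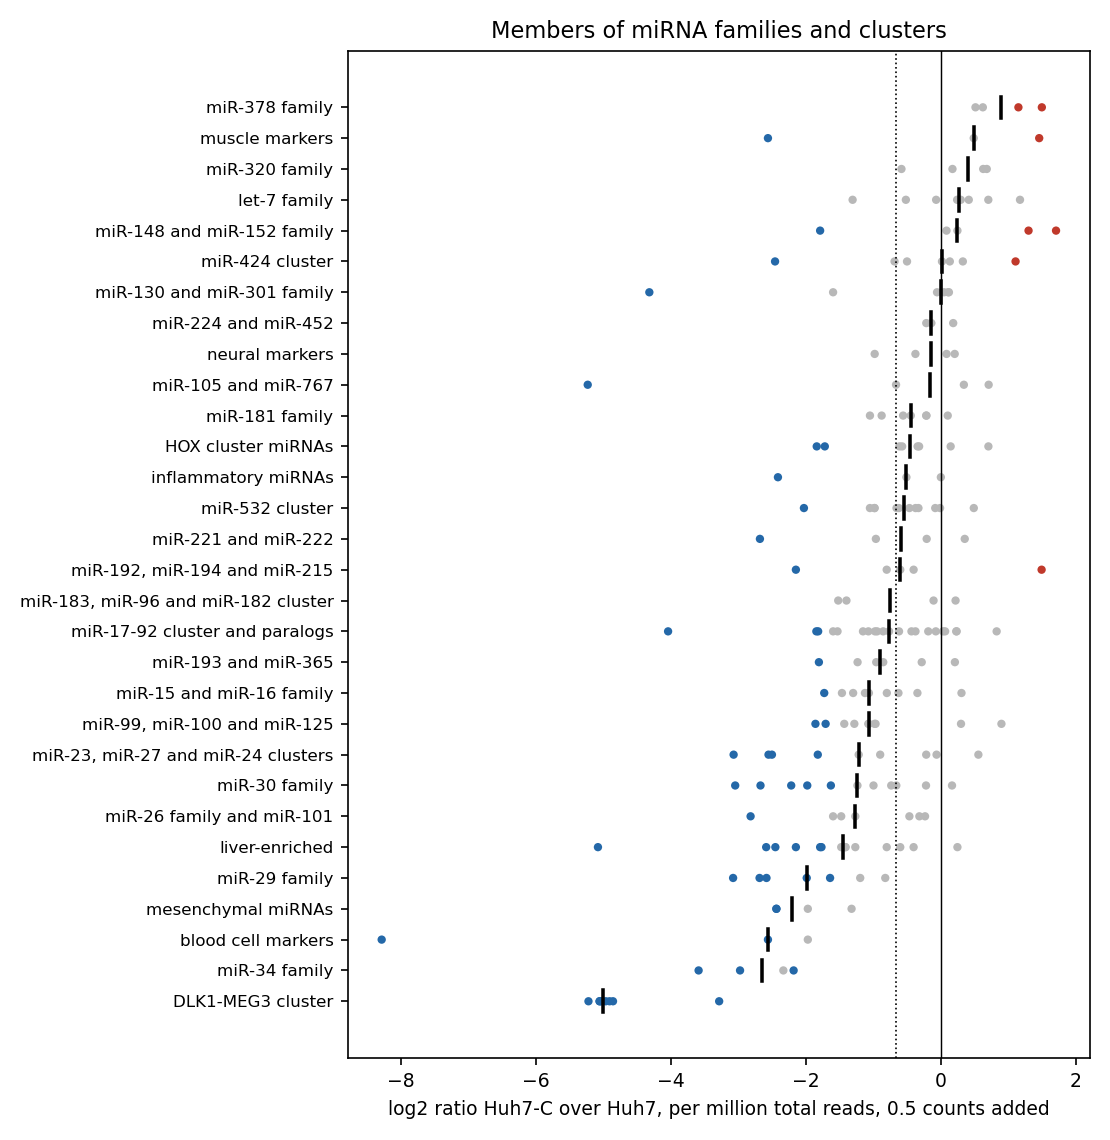
Log2 ratio of Huh7-C over Huh7, in TPM with 0.5 counts added, for the members that reached 10 counts, in lists with 3 or more of them. Red points were called higher and blue points lower on both scales, grey points were not called, black bars are list medians and the dotted line is the median of all 431 names (-0.66); all DLK1-MEG3 points are blue and lie below -3.

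The arms of a hairpin did not always move together. In 93 hairpins both arms reached 10 counts in Huh7 or Huh7-C. The arm with fewer counts was lower relative to the other in 66 of them and higher in 27, and the median log2 change of its ratio to the other arm was -0.48. This ratio does not depend on the library size. It changed at least 2-fold, with a Woolf interval that did not reach 0, in 27 hairpins, of which 22 had the rarer arm lower and 5 higher in Huh7-C. Many of the rarer arms that were lower reached 10 counts in Huh7 only, such as miR-767-3p (130 and 3 counts) and miR-589* (58 and 7). The filter can thus favour lower rarer arms, and its part in these splits and the median was not tested. In the 72 hairpins that also had 10 counts on both arms in the Hep3B pair, the median was -0.47 in the Huh7 pair and 0.01 in the Hep3B pair.

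miR-767 gave the largest change. miR-767-5p had 816 counts in Huh7 and 519 in Huh7-C, and miR-767-3p from the same hairpin 130 and 3, a log2 change of the ratio of -4.78 (Woolf interval -6.44 to -3.13). Both are cut from 1 hairpin within GABRA3 on chromosome X. miR-589* had 58 and 7 counts against 478 and 528 of miR-589, a change of -3.19. miR-22* changed by -2.53 against miR-22, miR-222* (79 and 12 counts) by -2.52 against miR-222 (669 and 583), and miR-148a* by -2.03 against miR-148a (interval -2.11 to -1.96). In the other direction miR-671-3p had 20 and 20 counts while miR-671-5p had 991 and 172, a change of 2.53 (interval 1.60 to 3.45), and miR-30e* gained 1.02 on miR-30e.

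**Figure D4:**
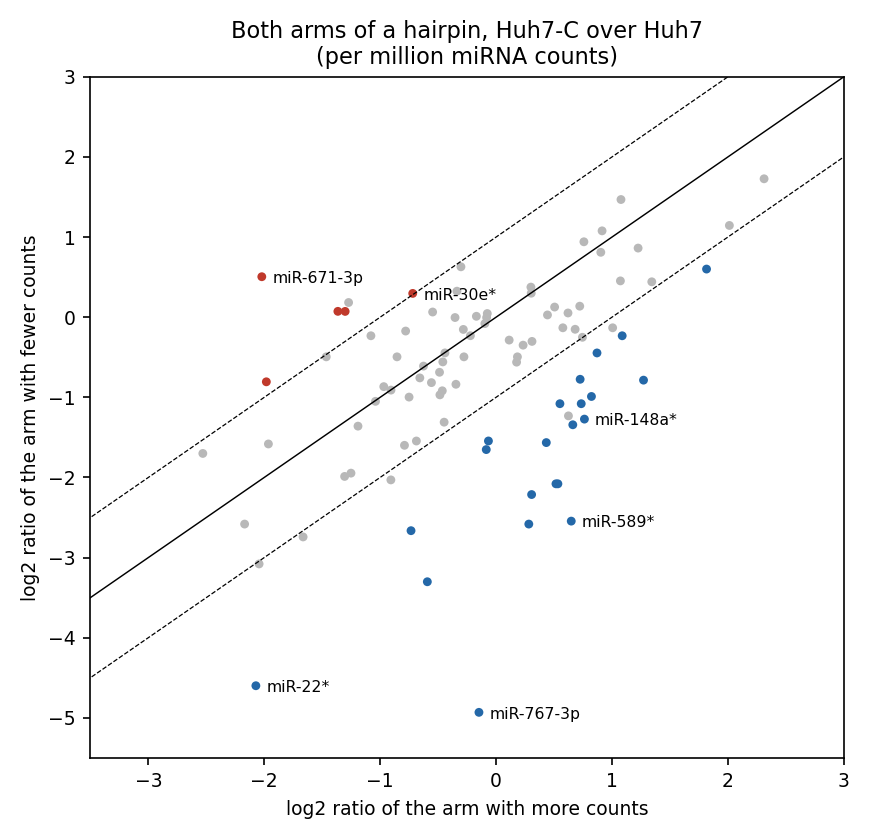
Log2 ratio of Huh7-C over Huh7, in CPM, of the arm with more counts (x axis) and the arm with fewer counts (y axis) of 93 hairpins, with 1 point per hairpin. The solid line marks equal ratios and the dashed lines 2-fold differences between arms; the 22 blue points are rarer arms that lost and the 5 red points rarer arms that gained at least 2-fold with an interval that did not reach equality.

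The calls were set beside those of the Hep3B pair, in which 68 of 475 names (14.3%) were called higher and 21 (4.42%) lower on both scales. Of the 29 names called higher in Huh7-C, 7 were called higher in Hep3B-C, which is 24.1% of the Huh7 calls and 10.3% of the 68 Hep3B calls. They were miR-378, miR-375, miR-215, miR-1269, miR-1269b, miR-338-5p and miR-4461. Only 23 of those 29 names reached 10 counts in the Hep3B pair. Of the 90 called lower, 71 of which reached 10 counts there, 7 were called lower in Hep3B-C, which is 7.78% of the Huh7 calls and 33.3% of the 21 Hep3B calls. They were miR-22*, miR-210, miR-149, miR-589*, miR-4788 and the inseparable miR-199a-3p and miR-199b-3p. In opposite directions 13 names were called, 1 of the 29 higher and 12 of the 90 lower calls. Each pair has its own parent library, and the miRNA share of all reads moved the other way in the Hep3B pair, where the log2 ratio was 1.76 lower in CPM than in TPM.

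**Figure D5:**
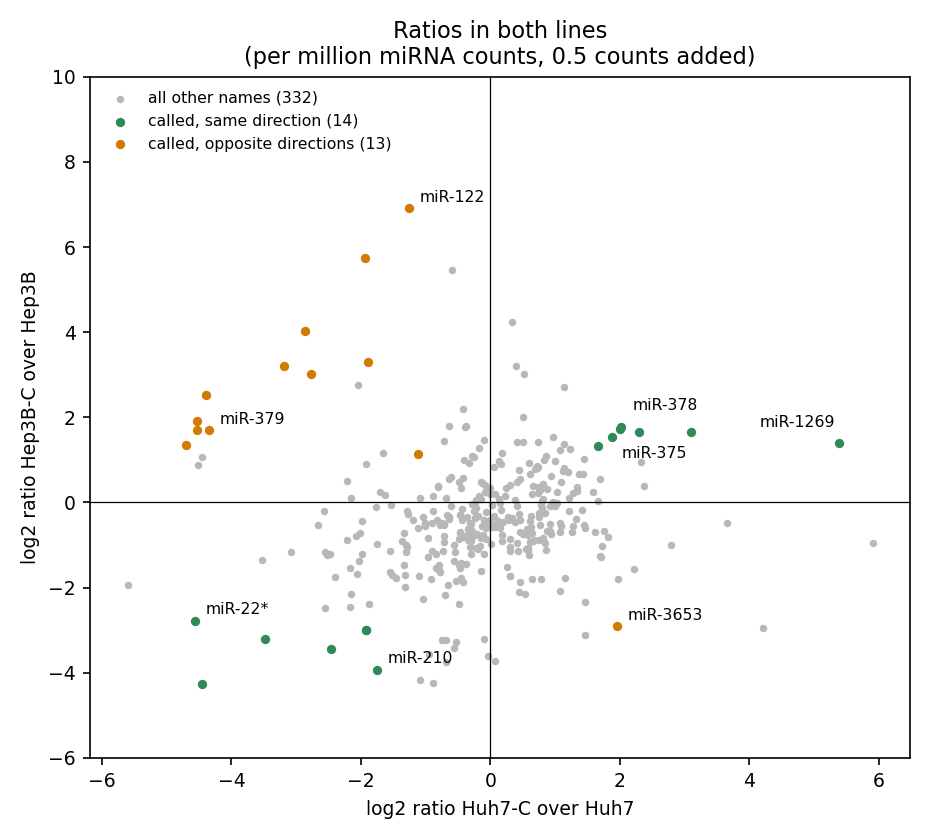
Log2 ratio of Huh7-C over Huh7 (x axis) and of Hep3B-C over Hep3B (y axis) for the 359 names that reached 10 counts in both pairs, in CPM with 0.5 counts added. Green points were called on both scales in both pairs in the same direction (14 names, of which miR-199a-3p and miR-199b-3p coincide), orange points in opposite directions (13), and miR-122 stands highest of the orange points.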

How the data were processed

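The small RNA of Huh7 and Huh7-C was read on an Illumina Genome Analyzer II. The authors removed contaminant reads, redundant reads and those under 18 nt, and aligned the rest to an older human genome build with SOAP. They then matched reads to ribosomal, small cytoplasmic, small nuclear, small nucleolar and transfer RNAs from GenBank. Reads left after that step were assigned to miRBase release 17. They deposited the raw read count of each miRNA name in each library, without normalization. Software versions are not given in the sources used here.

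Each count was divided by the total reads that the study gives for the library (TPM) and by the library's sum of miRNA counts (CPM). Fold-changes were taken for names with at least 10 counts in either library, with exact binomial 95% intervals and no test, as each condition had 1 library. Intervals and the floor of 3 counts cover counting error only. A call needed a 2-fold difference and an interval that did not reach equality. Ratios between miRNAs of the same library carry Woolf intervals. Medians and ranks used 0.5 added counts.

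Named miRNAs were the 12 largest increases and 12 largest decreases in TPM among those called on both scales with at least 50 counts in the higher library, the 10 highest in mean TPM, the members of the lists with the most counts or a call, and the other arm of a named miRNA. The lists and names were chosen with earlier results of these data known. miR-1248, miR-3653, miR-3607-3p, miR-3689f the arms of miR-589 and miR-671, and the names called in both pairs fall outside this rule and were chosen after their values were seen.

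Alternatives were other count filters and fold limits, TMM library sizes (edgeR 4.0.16) and DESeq2 1.42.0 size factors in R 4.3.3, an Audic and Claverie test with adjusted p at 0.01, and miRNA sums without the most abundant names. A simulated data set with known changes was used to test the calls. Sequences were matched by name to RefSeq (361 of 431 names), after older names had been matched by hand to current ones, and gene positions come from GENCODE release 29 (GRCh38). The files hold no positions. Computations used Python 3.11.15, numpy 2.4.6, pandas 2.3.3, scipy 1.17.1 and matplotlib 3.10.9.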

Additional observations from a re-analysis of the deposited data

Results flagged for a closer look

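In 13 names the calls on both scales had opposite directions in the Huh7 and Hep3B pairs, and whether the difference between the pairs exceeds the spread between cultures was not tested, since each condition had 1 library. Of these, 12 were lower in Huh7-C and higher in Hep3B-C. They are 12 of 90 lower calls, of which 71 reached 10 counts in the Hep3B pair. There 14.3% of all 475 tested names were called higher, so 12 of 71 is near that background. miR-122 had 489443 counts in Huh7 and 144814 in Huh7-C, against 397 in Hep3B and 149892 in Hep3B-C, so the parents were very unequal. These are raw counts, and the stem-like libraries differed in size, with 4045199 miRNA counts in Huh7-C and 5430195 in Hep3B-C. miR-122* had 279 and 51 counts in the Huh7 pair and 0 and 83 in the Hep3B pair.

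From the DLK1-MEG3 region, miR-379 had 359 and 12 counts in Huh7 and Huh7-C, against 1037 and 10485 in Hep3B and Hep3B-C. miR-381 had 74 and 2 against 55 and 993, and miR-382 had 14 and 1 against 46 and 1182. miR-127-3p had 18 and 0 against 344 and 2729, miR-411 had 16 and 0 against 66 and 785, and miR-889 had 16 and 0 against 60 and 615.

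Of the others, miR-29b-1* had 623 and 201 counts in the Huh7 pair and 13 and 92 in the Hep3B pair. miR-4521 had 118 and 11 against 0 and 25, miR-135b had 19 and 1 against 0 and 14, and miR-146b-3p had 18 and 3 against 3 and 107. miR-3653 was the single name higher in Huh7-C and lower in Hep3B-C, with 7 and 20 counts against 109 and 45.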

How the results depend on the processing

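No paired analysis was possible because each condition had 1 library, and for the same reason no replicate could be left out. The 29 higher and 149 lower calls in TPM became 76 and 82 with TMM library sizes and 62 and 90 with DESeq2 size factors. The median log2 ratio of -0.66 in TPM became -0.15 in CPM, -0.0062 with TMM sizes and -0.15 with DESeq2 factors, so the excess of lower calls depends on the library size. With at least 10 counts in both libraries, 20 higher and 95 lower were called in TPM, 49 and 50 in CPM, and 20 and 50 on both scales. In CPM the excess of lower calls thus also depended on this filter. With 50 counts in either library, 17 higher and 92 lower were called in TPM, 38 and 56 in CPM, and 17 and 56 on both scales. With the whole interval past 2-fold the numbers were 18 and 89, 29 and 59, and 18 and 59. At 4-fold they were 12 and 71, 19 and 49, and 12 and 49. Leaving miR-21 out of the miRNA sum gave 36 higher calls in CPM in place of 62. Of the 52 recomputed counts, 26 changed by no more than 1.5 times, among them the higher calls with at least 10 counts in both libraries. These filters and limits keep fewer names by construction. Of 99 recomputed log2 ratios of 33 named miRNAs, 0 changed the sign of a call. This was fixed in advance, because other library sizes shift every log2 ratio alike, by 0.52 to 0.66, less than a 2-fold call needs. Some names not called in TPM did change sign, such as miR-192 (-0.60 in TPM, 0.056 with TMM sizes) and miR-182 (-0.11 in TPM, 0.41 in CPM). The median changed sign between TPM and CPM in 8 of 40 lists.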

Other observations

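Some groups of miRNAs were left out of the comparisons above. The HOX cluster miRNAs, which mark the position of a tissue along the body axis, were abundant in both libraries. Of 8 tested names 2 were called lower and 0 higher, beside 20.9% and 6.73% of all names. miR-196a had 35807 counts in Huh7 and 39922 in Huh7-C, with log2 ratios of 0.14 in TPM and 0.66 in CPM, and miR-10b had 17763 and 11705 (-0.61 and -0.10). miR-196a*, with 90 and 25 counts, and miR-615-3p, with 24 and 7, were called lower. In the cluster on chromosome 19 that holds miR-99b, let-7e and miR-125a, 2 of 5 names were called lower, beside 20.9% of all names. They were miR-125a-5p (1854 and 572 counts, -1.71 in TPM) and miR-125a-3p (102 and 28). miR-99b had 21606 and 11036 counts (-0.98 and -0.46) and was not called.

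Members of a cluster or family also differed from each other elsewhere. miR-450b-5p, of the miR-424 cluster on chromosome X, had 90 counts in Huh7 and 196 in Huh7-C (log2 ratio 1.11 in TPM) and was called higher, while miR-542-5p of the same cluster had 24 and 4 and was called lower. miR-105, beside miR-767 on chromosome X, had 593 and 977 counts (0.71 in TPM and 1.23 in CPM) and was called in CPM only. miR-130a, with 49 and 2 counts, was called lower, while miR-130b, which belongs to the same family, had 1148 and 1247 (0.11 in TPM, interval -0.01 to 0.22). miR-25 had 3068 and 5486 counts and miR-92a 7139 and 3739, so that miR-25 had 0.430 counts per count of miR-92a in Huh7 and 1.47 in Huh7-C, a log2 difference of 1.77 (Woolf interval 1.69 to 1.86). In the Hep3B pair that difference was -0.21.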
